A study of Mus musculus with 10 samples.

Results

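Amino acid transporters are the membrane proteins that move amino acids, and a few related small molecules, across the plasma membrane and the lysosomal membrane. The genes described here are those whose symbols begin with Slc1a, Slc3a, Slc6a, Slc7a, Slc36a, Slc38a or Slc43a, with 1 symbol left out by the rule, and their RNA was compared between Neuro-2a cells depleted of Sfpq and control cells. The rule found 63 symbols among 23553 genes. Of these, 61 are transporters of the 7 families, and 2 (Slc7a6os and Slc36a1os) are opposite-strand neighbours that share a transporter's symbol without encoding one. The opposite-strand genes were kept out of all counts below.

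Neuro-2a is a mouse neuroblastoma line, labelled as being of mixed C57BL/6, C57BL/6J and CBA background. All cells were transfected with Stealth siRNA in medium with 2% serum, labelled as a differentiated condition. Control cells received siRNA against luciferase (Luc), and the others received siRNA against Sfpq, a nuclear protein that binds RNA and DNA. RNA selected for its poly(A) tail was sequenced in 3 Luc and 3 Sfpq libraries, and total RNA stripped of ribosomal RNA (rRNA-depleted) in 1 library of each group. Nothing in the labels says that replicates were separate cultures. The p-values here set each difference between groups against the scatter within groups of libraries, and that scatter may be only technical.

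Levels are given as RPKM, a read number divided by transcript length and by library size, and the read totals behind them are unknown. Judged by the steps between low values, poly(A) libraries had 0.628 to 1.27 times the depth of the first Luc library, and within the rRNA-depleted pair the Sfpq library had 1.01 times the depth of the Luc library. Sfpq itself was at 7.97% of the Luc mean in poly(A) RNA and at 14.4% in rRNA-depleted RNA. These values are those of its transcript with the highest mean, which RefSeq lists as non-coding. Luc replicate 3 correlated with the other Luc libraries at 0.985 and 0.979, against 0.996 between those. Of 7 neuronal and 7 sympathetic neuroblast markers, 6 and 6 reached a mean of 1 RPKM, 1 of 4 endothelial markers did, and none of 5 astrocyte, 5 oligodendrocyte, 6 microglial or macrophage and 6 fibroblast markers did. The summed sympathetic markers ran from 127 to 147 RPKM in Luc and from 80.7 to 90.4 RPKM in Sfpq poly(A) libraries, and their part in the results below was not tested.

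Several of these carriers work together. Members of the Slc7a light chain group reach the cell surface only when joined to a heavy chain, Slc3a2 (4F2hc) or Slc3a1 (rBAT), whereas the cationic carriers of Slc7a, and the Slc1a and Slc38a carriers, act without one. Glutamine taken up by Slc1a5 and Slc38a1 can be exchanged for leucine by the pair of Slc7a5 and Slc3a2, and imported cystine supplies the cysteine of glutathione. Lysosomal carriers return amino acids to the cytosol and help to report their level to the kinase complex mTORC1.

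In poly(A) RNA, 23 of the 61 transporter genes had a mean of at least 0.5 RPKM and were tested. Of these 23, 10 were lower in Sfpq cells, 2 were higher and 11 did not pass the test (limma on log2(RPKM + 0.5), adjusted p under 0.05). Among all 11727 genes tested, 18.6% were called lower and 21.3% higher. Fold changes are on that log2 scale throughout, so the change of low genes is understated. Lower calls made up 43.5% of the tested transporters and higher calls 8.70%. The median log2 fold change was -0.25 over the 23 genes and 0.05 over all genes tested. In 14 of the 23 genes all 3 Sfpq libraries lay below all 3 Luc libraries, which held for 24.7% of all genes, and in 2 they lay above, which held for 28.2%. The genes that fell were Slc7a1, Slc7a3, Slc7a7, Slc7a11, Slc7a14, Slc1a5, Slc38a1, Slc6a6, Slc6a9 and Slc36a4, and those that rose were Slc36a1 and Slc38a6.

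**Figure D1:**
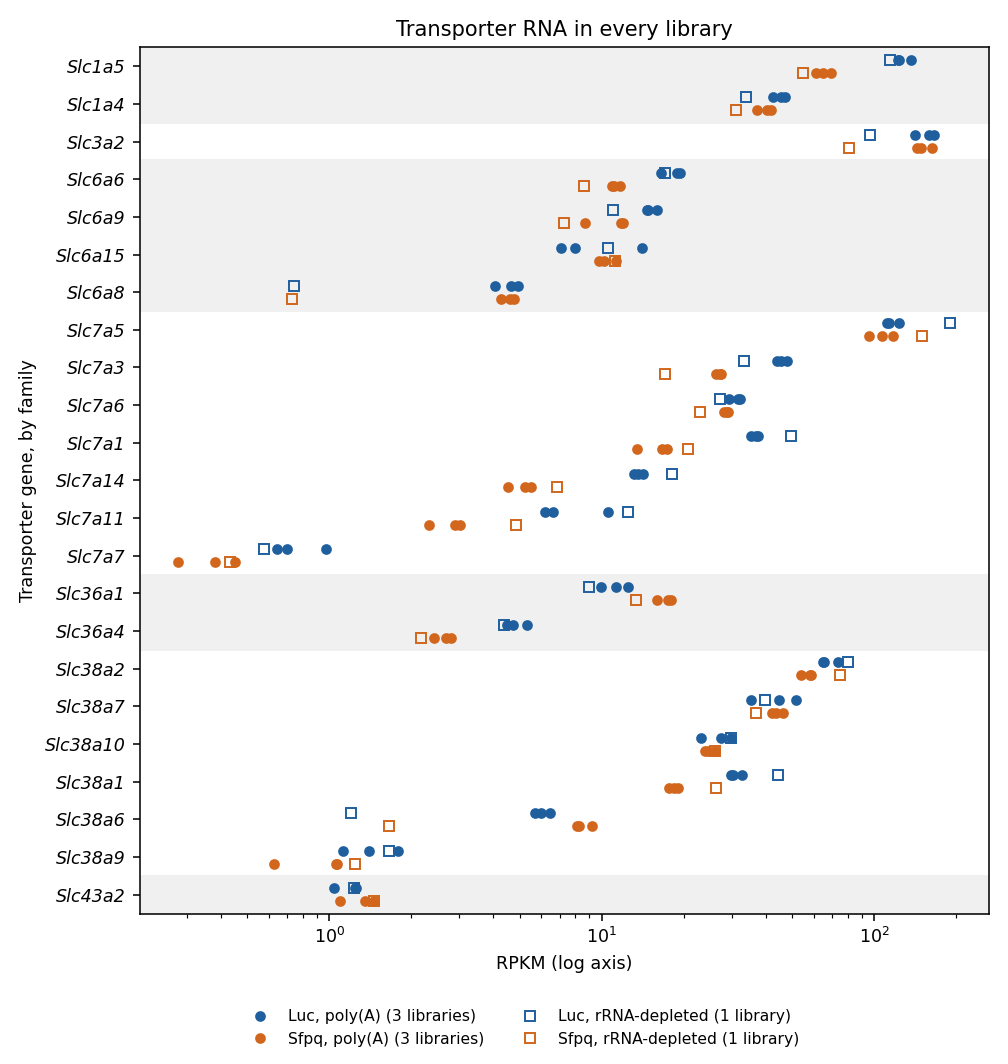
RPKM on a log axis for the 23 tested transporter genes, by family (shaded bands). Filled points are the 3 Luc (blue) and 3 Sfpq (orange) poly(A) libraries and open squares the rRNA-depleted libraries, 1 per group. Slc3a2, Slc1a5 and Slc7a5 have the highest poly(A) values, and the Luc and Sfpq points of Slc1a5, Slc7a1, Slc7a11 and Slc7a14 stand clearly apart.

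The cationic carriers of Slc7a, which import arginine, lysine and ornithine, were the first group. Slc7a1, the widely expressed carrier CAT-1, had 35.3, 37.4 and 37.0 RPKM in the 3 Luc libraries and 13.5, 17.3 and 16.7 RPKM in the 3 Sfpq libraries. The groups were far apart, and the Sfpq mean was 43.3% of the Luc mean (limma log2 fold change -1.19 with SE 0.12, adjusted p = 6.80e-05). Slc7a3, the carrier CAT-3 known mainly from brain, had 48.1, 45.4 and 44.0 RPKM in Luc and 26.3, 27.4 and 27.1 RPKM in Sfpq libraries, again with no overlap (limma log2 fold change -0.76 with SE 0.09, adjusted p = 0.000243). Slc7a2, the remaining cationic carrier, did not exceed 0.0270 RPKM in any library. Summed over these 3 genes, the level was between 81.0 and 83.4 RPKM in the Luc poly(A) libraries and between 39.7 and 44.7 RPKM in the Sfpq libraries, and went from 82.9 to 37.8 RPKM in rRNA-depleted RNA.

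Slc7a14 is a relative of the cationic carriers whose own substrates are less well defined. On RPKM + 0.5 it had the largest estimated fall among the tested transporters, from 13.1, 13.6 and 14.2 RPKM in Luc to 4.51, 5.51 and 5.22 RPKM in Sfpq libraries (limma log2 fold change -1.34 with SE 0.11, adjusted p = 2.58e-05). On RPKM alone the Sfpq mean was 37.2% of the Luc mean for Slc7a14 and 35.1% for Slc7a11, so their order was reversed. The 95% interval of Slc7a14 was -1.59 to -1.10, beside -1.45 to -0.93 for Slc7a1, -1.76 to -0.90 for Slc7a11 and -1.18 to -0.74 for Slc1a5. The differences between these falls were not tested.

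The heavy chain gene Slc3a2 was the most abundant transporter gene by its poly(A) mean, and it did not pass the test. It had 159, 166 and 141 RPKM in Luc and 163, 148 and 144 RPKM in Sfpq libraries, so the groups overlapped (log2 fold change -0.03, 95% interval -0.27 to 0.20, limma adjusted p = 0.832). The other heavy chain, Slc3a1, stayed at or under 0.108 RPKM. Of the light chains that pair with Slc3a2, the leucine carrier Slc7a5 (LAT1) was the most abundant, with 111, 123 and 113 RPKM in Luc and 95.7, 117 and 107 RPKM in Sfpq libraries. Its groups overlapped as well (log2 fold change -0.12, 95% interval -0.36 to 0.12, limma adjusted p = 0.387). Slc7a6, which exchanges cationic for neutral amino acids, had 32.3, 29.2 and 31.7 RPKM in Luc and 29.0, 28.9 and 28.2 RPKM in Sfpq libraries. These 3 values lay just below the Luc values, and the difference did not pass (-0.11, 95% interval -0.32 to 0.10, limma adjusted p = 0.368).

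Of the other light chains, Slc7a11 and Slc7a7 fell, and Slc7a8 and Slc7a10 were under the filter. Slc7a11 (xCT), which imports cystine in exchange for glutamate, had 6.64, 6.21 and 10.6 RPKM in Luc and 2.32, 2.89 and 3.01 RPKM in Sfpq libraries. The Luc values were uneven, with replicate 3 the highest, but all lay above the Sfpq values (limma log2 fold change -1.33 with SE 0.19, adjusted p = 0.000661), and the gene was also called without that library (-1.10). Slc7a7, a light chain for cationic amino acids, was near the filter, with 0.641, 0.973 and 0.701 RPKM in Luc and 0.278, 0.450 and 0.379 RPKM in Sfpq libraries (limma log2 fold change -0.55 with SE 0.15, adjusted p = 0.0166). Its call ended without Sfpq replicate 1 (-0.47), and without Luc replicate 2 it no longer reached the filter. Summed over the 6 light chains that can pair with Slc3a2, the RNA was 151, 160 and 156 RPKM in Luc and 127, 149 and 139 RPKM in Sfpq poly(A) libraries. These sums did not overlap. Relative to Slc3a2 they were 0.948, 0.963 and 1.11 in Luc and 0.779, 1.01 and 0.967 in Sfpq libraries, and these ratios overlapped. In rRNA-depleted RNA the sum went from 231 to 178 RPKM, or 2.39 and 2.20 times Slc3a2, with 1 library per group.

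Because the amino acid response acts through short promoter elements, promoters of the tested transporters were searched for its core. RefSeq sequences of build GRCm38.p6, which differs from the build of the authors' alignments, gave 25 windows for 16 of the 23 genes, each the 250 bases before an annotated start. The core TGATGNAA, on either strand, was present in 3.45% of 32851 such windows of all genes. It was found in 3 of the 25 windows, for Slc7a11 and Slc7a7 among the 16 genes. Sequence after the start was not searched. Slc7a11 carried it on both strands, 66 to 59 and 47 to 40 bases before the start. The hexamer CACGTG, the E-box at the centre of the CLEAR element of lysosomal genes, was present in 6.02% of all windows. It was found in 3 of the 25 windows, for Slc7a14, Slc36a1 and Slc38a7. Matches of the 2 motifs lay in different genes and did not overlap. The motifs were chosen after the results were known, and a match describes letters only. Shown 5′ to 3′ with matches in capitals are the windows of the fallen Slc7a11 (chr3:50443614-50443863, minus strand) and Slc7a14 (chr3:31310320-31310569, minus strand) and of Slc36a1, which rose (chr11:55204090-55204339, plus strand).
Slc7a11: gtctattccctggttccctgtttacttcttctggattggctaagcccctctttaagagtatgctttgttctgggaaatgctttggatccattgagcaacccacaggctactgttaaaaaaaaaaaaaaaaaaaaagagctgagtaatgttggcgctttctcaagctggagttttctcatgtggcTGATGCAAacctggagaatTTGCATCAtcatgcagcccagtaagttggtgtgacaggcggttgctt
Slc7a14: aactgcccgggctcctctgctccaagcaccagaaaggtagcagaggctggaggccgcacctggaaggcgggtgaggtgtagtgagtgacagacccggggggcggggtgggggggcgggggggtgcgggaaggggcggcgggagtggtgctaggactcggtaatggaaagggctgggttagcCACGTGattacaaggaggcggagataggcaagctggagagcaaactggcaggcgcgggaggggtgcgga
Slc36a1: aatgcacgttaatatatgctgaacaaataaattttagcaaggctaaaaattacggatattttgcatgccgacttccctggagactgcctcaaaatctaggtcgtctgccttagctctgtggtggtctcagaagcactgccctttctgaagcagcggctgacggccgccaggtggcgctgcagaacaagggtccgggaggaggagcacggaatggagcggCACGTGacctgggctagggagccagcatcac

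The Slc1a family holds the carriers of small neutral amino acids and the glutamate carriers of glia and neurons. Slc1a5 (ASCT2), a main route of glutamine into proliferating cells, had 123, 136 and 122 RPKM in Luc and 61.3, 69.2 and 64.8 RPKM in Sfpq libraries. The Sfpq mean was 51.2% of the Luc mean, with no overlap (limma log2 fold change -0.96 with SE 0.10, adjusted p = 8.86e-05). Slc1a4 (ASCT1), which carries alanine, serine and cysteine, had 42.4, 45.4 and 47.3 RPKM in Luc and 37.3, 41.7 and 40.5 RPKM in Sfpq libraries. Here too the Sfpq values lay below, but the difference was small and did not pass (-0.18, 95% interval -0.40 to 0.04, limma adjusted p = 0.179). The 5 glutamate carriers of the family stayed under the filter, with no value above 0.247 RPKM.

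The Slc38a family takes up glutamine and other small neutral amino acids together with sodium, and some members sit in the lysosome. Of 6 tested members, 1 fell, 1 rose and 4 did not pass (limma; 3 lower and 1 higher at unadjusted p under 0.05). Slc38a1, an uptake carrier for glutamine, had 29.8, 30.3 and 32.7 RPKM in Luc and 17.7, 19.1 and 18.4 RPKM in Sfpq libraries (limma log2 fold change -0.73 with SE 0.10, adjusted p = 0.000369). Its close relative Slc38a2, which is known to be induced when amino acids are scarce, had 64.9, 65.4 and 73.4 RPKM in Luc and 53.9, 58.6 and 58.4 RPKM in Sfpq libraries. Its groups did not overlap either, yet the difference did not pass (-0.25, SE 0.10, limma adjusted p = 0.0677); it passed with median-ratio scaling (adjusted p = 0.0239). Slc38a6 went the other way, with 5.68, 5.97 and 6.43 RPKM in Luc and 8.24, 8.14 and 9.18 RPKM in Sfpq libraries (limma log2 fold change 0.47 with SE 0.11, adjusted p = 0.00785). That call ended without Sfpq replicate 3 (0.41, adjusted p = 0.0518).

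Of the lysosomal members, Slc38a7, which exports glutamine and asparagine from the lysosome, had 44.6, 51.5 and 35.5 RPKM in Luc and 42.2, 46.2 and 43.6 RPKM in Sfpq libraries. The Luc values spanned the Sfpq values (log2 fold change 0.02, 95% interval -0.29 to 0.33, limma adjusted p = 0.9197). Slc38a9, which senses arginine for mTORC1, was scarce, with 1.13, 1.39 and 1.78 RPKM in Luc and 0.627, 1.06 and 1.07 RPKM in Sfpq libraries (-0.45, SE 0.18, limma adjusted p = 0.0704). It did not pass, although the groups did not overlap, and it passed in limma with median-ratio scaling (adjusted p = 0.0405) or quantile normalization (adjusted p = 0.0396). Slc38a10 had between 23.1 and 29.9 RPKM in Luc and between 24.0 and 26.0 RPKM in Sfpq libraries, and did not pass (-0.10, limma adjusted p = 0.516).

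Both tested members of Slc36a, a family known mainly for carriers that move small amino acids together with protons, changed in opposite directions. Slc36a1 (PAT1), which releases amino acids from lysosomes, had 11.3, 12.5 and 9.92 RPKM in Luc and 16.0, 17.5 and 17.99 RPKM in Sfpq libraries. The Sfpq mean was 152% of the Luc mean (limma log2 fold change 0.59 with SE 0.12, adjusted p = 0.00339). Slc36a4, a high-affinity carrier of proline and tryptophan, had 4.73, 4.48 and 5.33 RPKM in Luc and 2.68, 2.43 and 2.79 RPKM in Sfpq libraries, or 54.3% of the Luc mean (limma log2 fold change -0.77 with SE 0.12, adjusted p = 0.000891). Neither gene's groups overlapped, and both calls held in each of the alternative fits run.

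The Slc6a family is best known for taking up neurotransmitters and their relatives together with sodium and chloride. Its carriers of dopamine (Slc6a3) and serotonin (Slc6a4) stayed under the filter, with no value above 0.0236 RPKM. Slc6a6, the taurine carrier, fell from 19.4, 18.9 and 16.6 RPKM in Luc to 10.9, 11.6 and 11.1 RPKM in Sfpq libraries (limma log2 fold change -0.68 with SE 0.10, adjusted p = 0.000949). Slc6a9 (GlyT1), the glycine carrier, had 16.0, 14.7 and 14.8 RPKM in Luc and 8.68, 12.0 and 11.8 RPKM in Sfpq libraries. Sfpq replicate 1 was the lowest, and all 3 lay below the Luc values (-0.48, SE 0.14, limma adjusted p = 0.0195); the call ended without Luc replicate 1 (-0.44, adjusted p = 0.0730).

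Slc6a15, a carrier of branched-chain amino acids and proline in neurons, had 7.06, 8.01 and 14.0 RPKM in Luc and 9.73, 11.3 and 10.2 RPKM in Sfpq libraries. Luc replicate 3 was far above the other Luc libraries, so the groups overlapped and the gene did not pass (log2 fold change 0.16, 95% interval -0.33 to 0.64, limma adjusted p = 0.598). Without that library the gene was called higher (0.44, adjusted p = 0.00407). Slc6a8, which carries creatine, had between 4.06 and 4.92 RPKM in Luc and between 4.28 and 4.78 RPKM in Sfpq libraries (0.01, 95% interval -0.25 to 0.27, limma adjusted p = 0.962). In Slc43a, whose members Slc43a1 and Slc43a2 carry large neutral amino acids, Slc43a2 was tested and had 1.25, 1.24 and 1.04 RPKM in Luc and 1.10, 1.35 and 1.46 RPKM in Sfpq libraries (0.10, 95% interval -0.20 to 0.40, limma adjusted p = 0.573).

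The 38 transporter genes under the filter included 8 listed at 0 in every library (4 in Slc6a and 4 in Slc7a). With no filter on low values 50 transporters could be tested, as the others were at 0 in every poly(A) library. Of the tested genes that were under the filter, 4 were called (3 higher and 1 lower). The same fit called 13.3% of 17014 genes lower and 14.6% higher, and neither share of these transporters exceeded that of all genes. Slc38a3, a glutamine carrier of the sodium- and proton-coupled kind, had 0.0846, 0.0743 and 0.0133 RPKM in Luc and 0.512, 0.377 and 0.518 RPKM in Sfpq libraries (log2 fold change 0.80, limma adjusted p = 0.00122). It was also higher in rRNA-depleted RNA, at 0.0513 RPKM in Luc and 0.134 RPKM in Sfpq. Slc43a3 (0.32, adjusted p = 0.00847) and Slc38a8 (0.11, adjusted p = 0.0187) were called higher in the same limma fit. Slc38a8 had 0 RPKM in every Luc poly(A) library and 0.05015, 0.0405 and 0.02925 RPKM in the Sfpq libraries. In rRNA-depleted RNA Slc38a8 was nearly the same, at 0.0239 RPKM in Luc and 0.02377 RPKM in Sfpq, while Slc43a3 had 0.0482 and 0.0839 RPKM. Slc43a1 was called lower, with 0.339, 0.581 and 0.359 RPKM in Luc and 0.108, 0.232 and 0.236 RPKM in Sfpq libraries (-0.42, limma adjusted p = 0.0496). Its rRNA-depleted values were 0.386 RPKM in Luc and 0.211 RPKM in Sfpq. At such levels the pseudocount of 0.5 shrinks the fold change strongly.

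**Figure D2:**
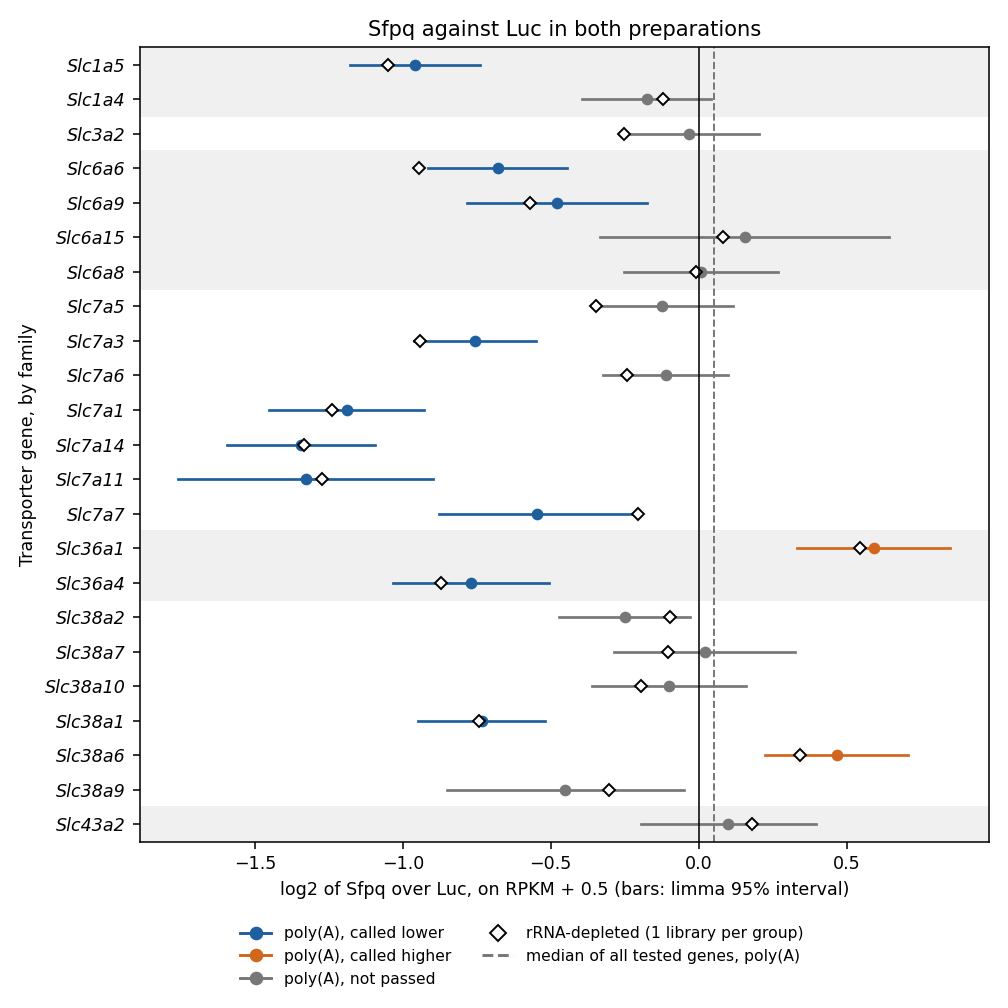
Log2 of Sfpq over Luc for the 23 tested transporter genes, on RPKM + 0.5. Points with bars are poly(A) estimates with limma 95% intervals, coloured by call, diamonds are the rRNA-depleted ratios with 1 library per group, and the dashed line is the poly(A) median of all tested genes (0.05). The 10 lower and 2 higher calls have diamonds on the same side of 0.

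In rRNA-depleted RNA, which has no replicate and hence no test, 8 of 23 transporter genes that averaged 0.5 RPKM or more were at least 1.5-fold lower in the Sfpq library (34.8%), and 0 were at least 1.5-fold higher, as ratios of RPKM + 0.5. On RPKM without the added 0.5 the lower count was 9 (39.1%, against 15.5% of all genes), with Slc6a9 added. Among all 11386 genes of that comparison, 13.3% were lower and 7.86% higher by that much. The median log2 ratio was -0.25 for the transporters and -0.02 for all genes. The 8 genes were Slc7a14, Slc7a11, Slc7a1, Slc1a5, Slc6a6, Slc7a3, Slc36a4 and Slc38a1. Slc7a14 went from 18.1 to 6.86 RPKM (log2 ratio -1.33), Slc7a11 from 12.4 to 4.85 RPKM (-1.27), and Slc7a1 from 49.5 to 20.7 RPKM (-1.24). Slc1a5 went from 114 to 54.9 RPKM (-1.05), Slc6a6 from 17.01 to 8.58 RPKM (-0.95), and Slc7a3 from 33.3 to 17.1 RPKM (-0.94). Slc36a4 went from 4.38 to 2.17 RPKM (-0.87) and Slc38a1 from 44.3 to 26.3 RPKM (-0.74). All 8 were also called lower in poly(A) RNA.

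The remaining poly(A) calls had smaller ratios of RPKM + 0.5 here. Slc6a9 went from 11.0 to 7.28 RPKM (-0.57) and Slc7a7 from 0.575 to 0.432 RPKM (-0.21, or 75.2% of Luc on RPKM alone), while Slc36a1 went from 8.97 to 13.3 RPKM (0.54) and Slc38a6 from 1.20 to 1.65 RPKM (0.34). All 12 genes called in poly(A) RNA thus had the same direction in rRNA-depleted RNA. That held for 99.1% of the 4474 genes called in poly(A) RNA and present in both comparisons, a share close to that of the transporters. Slc3a2 went from 96.7 to 81.0 RPKM (-0.25) and Slc7a5 from 191 to 150 RPKM (-0.35), both short of 1.5-fold. Slc38a7 and Slc6a8, with poly(A) estimates near 0, were the 2 genes whose signs differed between the preparations.

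Summed RPKM over all members of a family gives the relative level of its RNA in each library, not an absolute amount. Slc1a summed to 172 ± 8.42 RPKM in Luc and 105 ± 6.15 RPKM in Sfpq poly(A) libraries (SD, n = 3), or 61.0% of Luc, and to 58.0% in rRNA-depleted RNA. Slc7a summed to 252 ± 4.36 and 186 ± 14.0 RPKM (SD, n = 3), or 74.0% in poly(A) and 67.0% in rRNA-depleted RNA. Slc6a was at 77.8% and 70.7%, and Slc38a at 87.1% and 84.9%. In these 4 families every Sfpq poly(A) sum lay below every Luc sum. Slc3a was at 97.7% and 83.8%, and Slc43a at 102% and 105%, with overlapping poly(A) sums. Slc36a was higher, at 16.2 ± 0.903 RPKM in Luc and 19.9 ± 1.07 RPKM in Sfpq libraries (SD, n = 3), or 123% and 117%, since Slc36a1 is its more abundant member. Over all 61 genes the sum was 822 ± 27.9 RPKM in Luc and 656 ± 22.5 RPKM in Sfpq libraries (SD, n = 3). A lower sum cannot be told apart from fewer cells that make these RNAs.

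**Figure D3:**
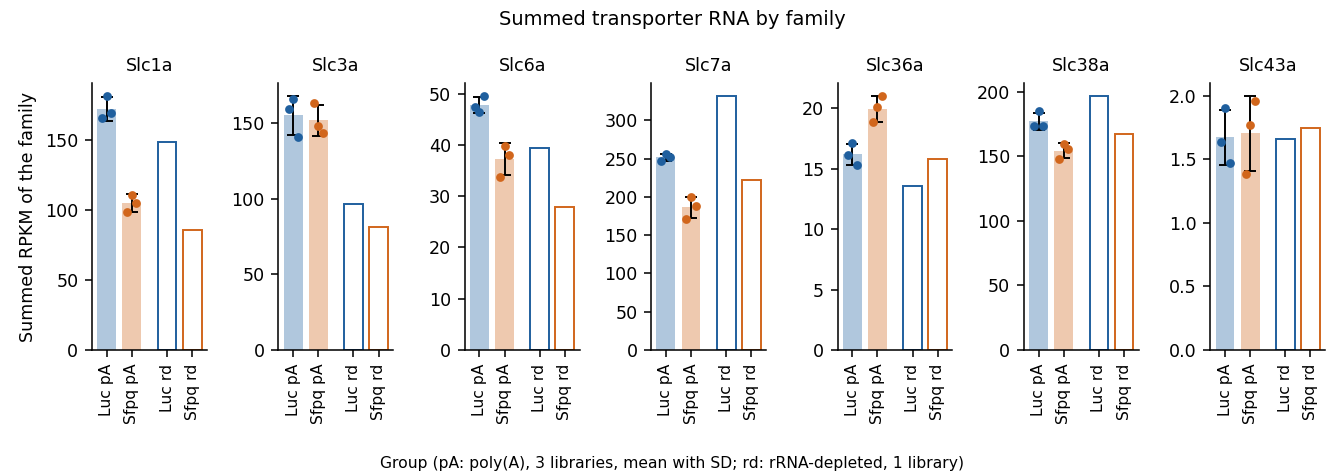
Summed RPKM of each family, each panel with its own axis from 0. Filled bars are means of 3 poly(A) libraries with SD and each library as a point, and open bars are the single rRNA-depleted libraries. Slc1a, Slc6a, Slc7a and Slc38a are lower and Slc36a is higher in Sfpq than in Luc libraries of both preparations.

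Family by family, Slc7a had 5 of 7 tested genes lower, 0 higher and 2 not passed, with a median log2 fold change of -0.76 (limma; 5 lower and 0 higher at unadjusted p under 0.05). Slc6a had 2 of 4 lower and 0 higher (limma; 2 and 0 unadjusted), and Slc1a 1 of 2 lower and 0 higher (1 and 0 unadjusted). The medians were -0.24 for Slc6a, -0.57 for Slc1a, -0.18 for Slc38a and -0.09 for Slc36a. Where a gene had several transcript rows, they gave nearly the same ratio, although rows of 1 gene share most of their reads. On the scale of mean RPKM + 0.5, which shrinks the change of a scarce gene such as Slc7a7, the log2 ratio ran from -0.73 to -0.72 over 3 rows of Slc38a1, from -0.55 to -0.54 over 3 rows of Slc7a7, from -0.12 to -0.09 over 6 rows of Slc38a10, and from -0.05 to -0.03 over 2 rows of Slc3a2. Slc7a6os had 32.2, 35.2 and 30.5 RPKM in Luc and 38.6, 36.3 and 39.1 RPKM in Sfpq libraries, and did not pass (0.22, limma adjusted p = 0.104). As the counting is not stated to use strand, its reads and those of Slc7a6 may not be separable.

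Accompanying lists cover other parts of amino acid handling, and their counts stand beside 18.6% of all tested genes lower and 21.3% higher. Some genes are counted in several lists, so the lists are not separate sets. In the amino acid response, the programme that the transcription factor Atf4 switches on when amino acids run short, 16 of 28 tested genes fell, 1 rose and 11 did not pass (limma), with a median log2 fold change of -0.34. The largest falls were in Cth, which makes cysteine (61.3 ± 4.60 to 22.8 ± 0.250 RPKM with SD over n = 3, log2 fold change -1.40 at a limma adjusted p of 9.84e-06), in the stress gene Nupr1 (-1.37) and in the secreted factor Gdf15 (-1.08). The asparagine synthetase gene Asns (-0.42) and the serine synthesis genes Psat1 (-0.61), Phgdh (-0.33) and Psph (-0.30) also fell, and Cebpg (0.39) rose. Atf4 RNA itself ran from 526 to 669.8 RPKM in Luc and from 539 to 599 RPKM in Sfpq libraries and did not pass. The list of glutathione synthesis and NRF2 targets, which includes Slc7a11, had 11 of 17 lower, 1 higher (Gss, 0.51) and 5 not passed, with a median of -0.78. Nqo1 (-1.57), Hmox1 (-1.57) and Cth, which is also in the amino acid response, led that list, and Nfe2l2, which encodes NRF2, fell by 0.64 on the log2 scale.

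A list of 34 genes for amino acid sensing and mTORC1 included subunits of mTORC1 itself. Of these 34, 5 fell, 5 rose and 24 did not pass (limma, median -0.03). At unadjusted limma p under 0.05, 8 were lower and 8 higher. The called share was smaller each way than among all genes. Mlst8, a subunit of mTORC1, rose from 4.01 ± 0.445 to 11.1 ± 0.341 RPKM (SD, n = 3), a log2 fold change of 1.36 with a limma adjusted p of 2.79e-05, and Kptn (0.74) and Rragd (0.63) rose, while Lamtor2 (-0.45), Lamtor3 (-0.50) and Lamtor5 (-0.54), which anchor mTORC1 to the lysosome, fell. Lamtor1 (-0.17) and Lamtor4 (-0.29) of the same complex did not pass, and the largest fall of the list was in the arginine sensor relative Castor2 (-0.60). Of 20 cytosolic aminoacyl-tRNA synthetases, 4 fell, 0 rose and 16 did not pass (limma; 8 lower and 1 higher at unadjusted p under 0.05), led by Iars (-0.81), Cars (-0.41) and Rars (-0.38), a lower share close to that of all genes. Among 14 tested genes of glutamate, GABA and glycine metabolism, 4 fell, 1 rose (Aldh5a1, 0.55) and 9 did not pass (limma). Of those that fell, Asns and Phgdh were already counted in the amino acid response. The GABA-degrading enzyme gene Abat had the largest fall, from 10.1 ± 0.818 to 1.96 ± 0.246 RPKM (SD, n = 3), a log2 fold change of -2.11 with a limma adjusted p of 3.72e-06. Asns and Shmt1, which interconverts serine and glycine, fell alike (both -0.42).

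Amino acid carriers of other families had 6 tested genes. Slc16a10 (TAT1), which carries aromatic amino acids, had 3.10, 3.06 and 4.19 RPKM in Luc and 1.05, 1.35 and 1.13 RPKM in Sfpq libraries (limma log2 fold change -1.23 with SE 0.15, adjusted p = 0.000211). Slc15a4, which moves histidine and small peptides out of the lysosome, had 12.1, 11.5 and 12.0 RPKM in Luc and 22.4, 23.0 and 22.5 RPKM in Sfpq libraries (0.90, SE 0.09, limma adjusted p = 9.14e-05). Both kept their direction in rRNA-depleted RNA (-1.42 and 0.87). The lysosomal carriers Slc66a1, Ctns and Slc17a5 did not pass, with log2 fold changes of -0.23, 0.20 and 0.36 and limma adjusted p of 0.243, 0.201 and 0.0771.

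**Figure D4:**
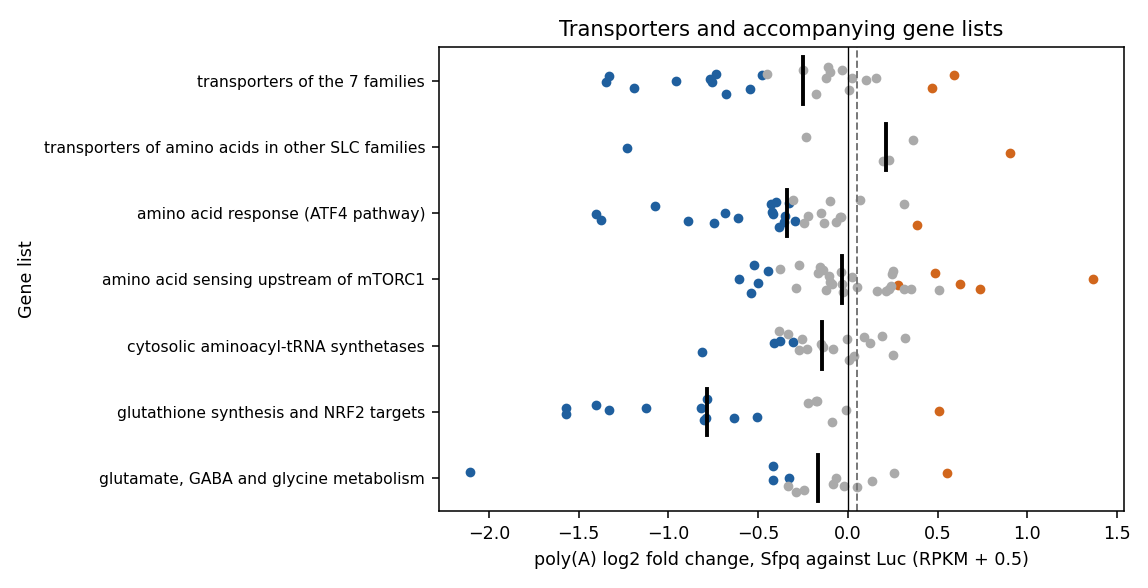
Poly(A) log2 fold changes of the tested transporters (top row) and of the accompanying lists, 1 point per gene. Blue points were called lower, orange points higher and grey points did not pass, the short black bar is the median, and the dashed line is the median of all tested genes. The medians are -0.25 for the transporters, -0.34 for the amino acid response and -0.78 for glutathione synthesis and NRF2 targets.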

How the data were processed

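RNA libraries were 3 Luc and 3 Sfpq poly(A) libraries and 1 of each kind of rRNA-depleted RNA. The deposited RPKM values, given per RefSeq transcript identifier and headed RPKM per the file headers, rest on alignment by TopHat2 2.0.10 with build mm9, as named in the submitters' processing notes. How RPKM was calculated, and on which annotation, is not given in the sources used here. The 2 labelled RNA polymerase II immunoprecipitation samples were not analysed here. Groups and replicate numbers came from sample titles; 1 description disagrees with its title's number.

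Of 30978 rows, 30503 (98.5%) were named through a gene table of assembly GRCm38.p6, used for names only, and the row with the highest mean over 8 libraries stood for a gene. Of the symbols the rule describes in that table, 3 had no row. Poly(A) values, as log2(RPKM + 0.5), were fitted for the 11727 genes averaging 0.5 RPKM or more by limma (version 3.58.1, R 4.3.3), using a trended prior, Benjamini-Hochberg adjustment and no replicate term. In the rRNA-depleted pair a ratio of 1.5 in RPKM + 0.5 served as threshold. Data were also simulated with the means and spreads of the poly(A) libraries (11727 genes, 200 of them changed). There 17.6% of log2 changes of 0.5, 87.9% of 1 and 100% of 2 were recovered, and 0.026% of unchanged genes were called. In the real comparison 40.0% of genes were called, which makes the adjusted cutoff less strict. The simulated recovery rates therefore do not carry over to it. Python 3.11.15 was used for the remaining steps. Every tested member was named, with values in each library for called members and the 2 most abundant of each family; of each list the 3 largest called genes were named, and the other genes named from the lists, like the members under the filter, were chosen after their values were seen. The members and lists were chosen with earlier results of these data known. Precision comes from the replicates and, through the trended prior, from the spread of all genes tested. Values of 1 member under the filter are not reported here.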

Additional observations from a re-analysis of the deposited data

How the results depend on the processing

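Alternatives for poly(A) RNA were a pseudocount of 0.1 or 1, dropping the filter or raising it to 2 RPKM, quantile normalization, median-ratio scaling, an untrended limma prior, averaging the rows of each gene, a replicate block, and leaving out each library. The number of transporters called lower ran from 9 to 12 and kept within 1.5 times of 10 in all of them. Calls among all genes moved as well. With median-ratio scaling, which gave 12 transporters, 2504 of 11722 genes were lower. When a library was left out, lower calls ran from 1673 of 11701 genes (without Sfpq replicate 3) to 2645 of 11730 (without Luc replicate 3). Higher calls ran from 1546 of 11729 genes (without Sfpq replicate 2) to 3621 of 11730 (without Luc replicate 3). The number of transporters called higher was 5 with no filter on low values and ran from 1 to 3 when a library was left out (1 without Sfpq replicate 3, 3 without Luc replicate 3). The median was -0.0096 with no filter, where 50 transporters were tested, -0.16 with quantile normalization and -0.28 to -0.20 when a library was left out. Of the refitted log2 fold changes of single members, 321 kept direction and call, 5 gained and 3 lost a call, and 12 changed sign, all in 4 genes that were not called. Slc6a8 was -0.0324 with median-ratio scaling and -0.0220 with quantile normalization, Slc38a7 -0.0246 with median-ratio scaling, and Slc3a2 0.13 with quantile normalization; without 1 library, Slc6a8 ran from -0.0610 to 0.0633, Slc38a7 from -0.12 to 0.14, Slc3a2 from -0.10 to 0.0174 and Slc6a15 from -0.0305 to 0.44. The cause was not tested. Same-numbered libraries correlated in their deviations at 0.327, -0.035 and 0.157, and differently numbered ones at -0.277 to 0.166. With 3 libraries per group these values cannot settle whether the numbers pair the libraries. With a replicate block 11 transporters were lower and 2 higher, with Slc38a9 gained (-0.45, limma adjusted p = 0.0234). Among all 11727 genes, 2309 were lower and 2681 higher with that block. In rRNA-depleted RNA 8 or 9 genes were at least 1.5-fold lower and 0 higher in every alternative, 9 with a pseudocount of 0.1. The rRNA-depleted median of -0.25 was -0.0349 with no filter, -0.34 with a pseudocount of 0.1 and -0.46 with a minimum of 2 RPKM. With the mean of all rows, poly(A) family sums moved by less than their spread, and in rRNA-depleted RNA, which has no spread, Slc3a moved most, from 83.8% to 82.0% of Luc. Depth is known only in relative terms, which limits statements on genes under the filter.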

Other observations

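The preparations gave different levels for some transporters in control cells, with 1 rRNA-depleted library and hence no test. Slc6a8 had 0.739 RPKM in the rRNA-depleted Luc library against 4.54 ± 0.436 RPKM in Luc poly(A) libraries (SD, n = 3), and Slc38a6 had 1.20 against 6.03 ± 0.382 RPKM (SD, n = 3), ratios of 0.163 and 0.199. In the other direction, Slc7a5 had 191 against 116 ± 6.33 RPKM (SD, n = 3) and Slc7a11 12.4 against 7.81 ± 2.41 RPKM (SD, n = 3), ratios of 1.65 and 1.59. RPKM is scaled within each preparation, so these ratios are not changes in amount.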
